A study of Mus musculus with 16 samples.

Results

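The nuclear-encoded genes of the respiratory chain were followed in mouse kidney after cisplatin, a platinum drug that injures the kidney tubule. Members were the genes of the deposited expression table whose symbol starts with Nduf, Sdha to Sdhd, Uqcr, Cox4 to Cox8 or Atp5, with pseudogene symbols left out, and which reached at least 1 TPM, a length-scaled share of all transcripts, in at least 4 of the 16 libraries. Of 101 matching names 4 were pseudogenes, and of the remaining 97 genes 93 passed, among 15014 genes that passed the same filter and 46078 genes in the table. They comprised 36 genes of complex I, 4 of complex II, 8 of complex III, 17 of complex IV, 15 of complex V, 12 assembly factors and Atp5s, a coupling factor placed in no class. The classes came from textbook roles; Ndufa4 and its paralog Ndufa4l2 were counted with complex IV. The 4 genes below the filter were Cox4i2, with a highest value of 0.913 TPM, Cox7b2, with a highest value of 0.0469 TPM, and Cox8c and a second Uqcrc1 identifier, both listed at 0. Cox8b, with 5 libraries at or above 1 TPM, and Cox6a2, with 7, were the members nearest to the filter.

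The series held 16 kidney libraries from C57BL/6 mice aged 20 weeks, in 4 groups of 4. Mice without preconditioning received saline (0.9%) as vehicle (BL_vehicle) or cisplatin (BL_cisplatin), both by intraperitoneal injection. A further group (CR_cisplatin) was kept on restricted calories for 4 weeks before the drug. The last (HP_cisplatin) was exposed to hypoxia for 2, 4 and 8 h over 3 days, ending at least 1 h before the drug. Kidneys were perfused and taken 72 h after injection, and ribosomal RNA was depleted from total RNA before sequencing. All groups shared strain and age, and none combined preconditioning with saline, so a change by preconditioning alone cannot be told apart from a changed response to cisplatin. The labels do not say whether the libraries of a group came from separate mice, so p-values measure the spread between libraries, which may be technical. The libraries held 49174117 to 62594474 reads recovered from the table.

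The respiratory chain passes electrons from NADH, through complex I, and from succinate, through complex II, to ubiquinone, complex III, cytochrome c and complex IV, which reduces oxygen. Complexes I, III and IV pump protons across the inner mitochondrial membrane, and complex V, the ATP synthase, uses the gradient to make ATP. The proximal tubule, the main site of cisplatin uptake in the kidney, is rich in mitochondria and relies on this route for solute transport. A few subunits are encoded by the mitochondrial genome, all others by nuclear genes, whose transcription is known to depend on factors such as NRF1, GABP, the estrogen-related receptors and their coactivator PGC-1alpha.

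Some libraries stood apart from their groups, and this bears on what follows. Over 16727 genes, HP_cisplatin 4 and CR_cisplatin 4 were the nearest of all pairs of libraries, with a median squared difference 1.81 times that of counting noise, against 3.33 times for the next pair. HP_cisplatin 4 also held Havcr1, the gene of the tubular injury marker KIM-1, at 0.473 TPM, against 582, 51.0 and 409 TPM in HP_cisplatin 1 to 3, 298 to 489 TPM in BL_cisplatin and 0.306 to 1.33 TPM in BL_vehicle. The labels do not say whether these 2 libraries share a mouse or an RNA sample, and this was not tested. Counts of members called in the hypoxia group, class medians and the leading genes are therefore also given without HP_cisplatin 4. Ucp1, the uncoupling protein that defines brown fat, was above 1 TPM in 5 libraries: 107 TPM in BL_cisplatin 4, 37.4 in CR_cisplatin 4, 35.7 in HP_cisplatin 4, 23.8 in HP_cisplatin 2 and 3.53 in BL_vehicle 3. It was at most 0.146 TPM in the other 11, and 6 other adipose genes (Cidea, Adipoq, Fabp4, Plin1, Cfd and Dio2) were each higher in every one of these 5 libraries than in any of the other 11. Library titles carried 1 of 2 prefixes. BL_cisplatin 1 to 4 and CR_cisplatin 1 had the first and the other 11 the second. Prefix and group thus cannot be told apart between BL_cisplatin and BL_vehicle or HP_cisplatin. A term for the prefix rests only on CR_cisplatin 1 against CR_cisplatin 2 to 4. As a check of the kidney label, the proximal tubule phosphate transporter gene Slc34a1 was at 1580 to 2173 TPM in the vehicle libraries.

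Promoter sequences are shown because most members moved together. RefSeq promoter windows (GRCm38.p6, 250 bases before to 50 after the start site) were matched for 79 of the 93 members, 3 of them through a newer name. The NRF1 core, searched on both strands as CGCANGCG, was in 35 of the 85 windows of members (41.2%) and in 8.21% of all 32851 windows. The YY1 motif AAGATGGC was in 14.1% of members' windows against 2.75% of all, the ERR half-site CAAGGTCA in 4.71% against 1.56%, and the ETS motif CCGGAAGT, which GABP binds, in 5.88% against 3.89%. Members' windows had a median GC content of 58.7% against 52.7% for all, and the shares were not matched for it. The 60-base stretches below lie wholly upstream of the start site, run 5′ to 3′ on the gene's strand and carry each NRF1 core match in capitals. The first 6 belong to members that fell after cisplatin, chosen to span all but complex III and the range of falls, and the last pair to the only members that rose, which had no match upstream of the start site.
Ndufaf4, chr4:24897945-24898004, plus strand: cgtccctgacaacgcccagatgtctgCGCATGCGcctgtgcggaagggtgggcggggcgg
Sdha, chr13:74350241-74350300, minus strand: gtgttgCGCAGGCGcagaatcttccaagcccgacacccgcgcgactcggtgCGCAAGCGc
Ndufb10, chr17:24724424-24724483, minus strand: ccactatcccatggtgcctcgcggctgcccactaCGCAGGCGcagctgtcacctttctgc
Atp5c1, chr2:10080433-10080492, minus strand: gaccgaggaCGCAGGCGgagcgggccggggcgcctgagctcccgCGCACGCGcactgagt
Cox6a1, chr5:115349041-115349100, minus strand: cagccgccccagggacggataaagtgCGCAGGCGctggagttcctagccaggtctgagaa
Atp5g2, chr15:102671055-102671114, minus strand: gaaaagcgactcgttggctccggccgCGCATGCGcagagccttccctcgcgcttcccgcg
Ndufb6, chr4:40279422-40279481, minus strand: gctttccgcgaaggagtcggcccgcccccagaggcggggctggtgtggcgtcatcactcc
Cox6b2, chr7:4753095-4753154, minus strand: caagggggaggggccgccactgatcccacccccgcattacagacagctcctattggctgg
A match describes these letters and is not evidence of binding. The 31 matched members with an NRF1 core had a median log2 fold change after cisplatin of -0.69, and the 48 without one also had a median of -0.69.

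Cisplatin without preconditioning lowered transcripts of every complex. Of the 93 members, 84 were lower and 2 higher in BL_cisplatin than in BL_vehicle by limma on log2(TPM + 1), with Benjamini-Hochberg adjustment over all 15014 genes and a threshold of 0.05. Of all genes tested 28.8% were lower and 38.0% higher. The median log2 fold change of the members was -0.74, against 0.08 over all genes. No overlap between the 4 vehicle and the 4 cisplatin libraries was seen for 84 members that were lower and 2 that were higher, against 26.6% and 37.0% of all genes. Scaling without the 10 most abundant genes and those of mitochondria and red blood cells moved the median of all genes to 0.24 and that of the members to -0.60, with 82 lower and 3 higher, Sdhaf2 being the added one. The members summed to 10359 to 11072 TPM in the vehicle libraries and to 5904 to 6700 TPM in BL_cisplatin. As a share of TPM of nuclear protein-coding genes, they made up 4.02 to 4.34% and 2.82 to 2.95%, so the fall was also present within the nuclear coding transcripts. In whole-kidney RNA, fewer cells of a type and less RNA per cell cannot be told apart. All 12 genes of a proximal tubule list fell as well (median -3.26), and all 9 of a list for the thick ascending limb and distal tubule, with a median of -2.58; their part in the fall of the members was not tested.

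**Figure D1:**
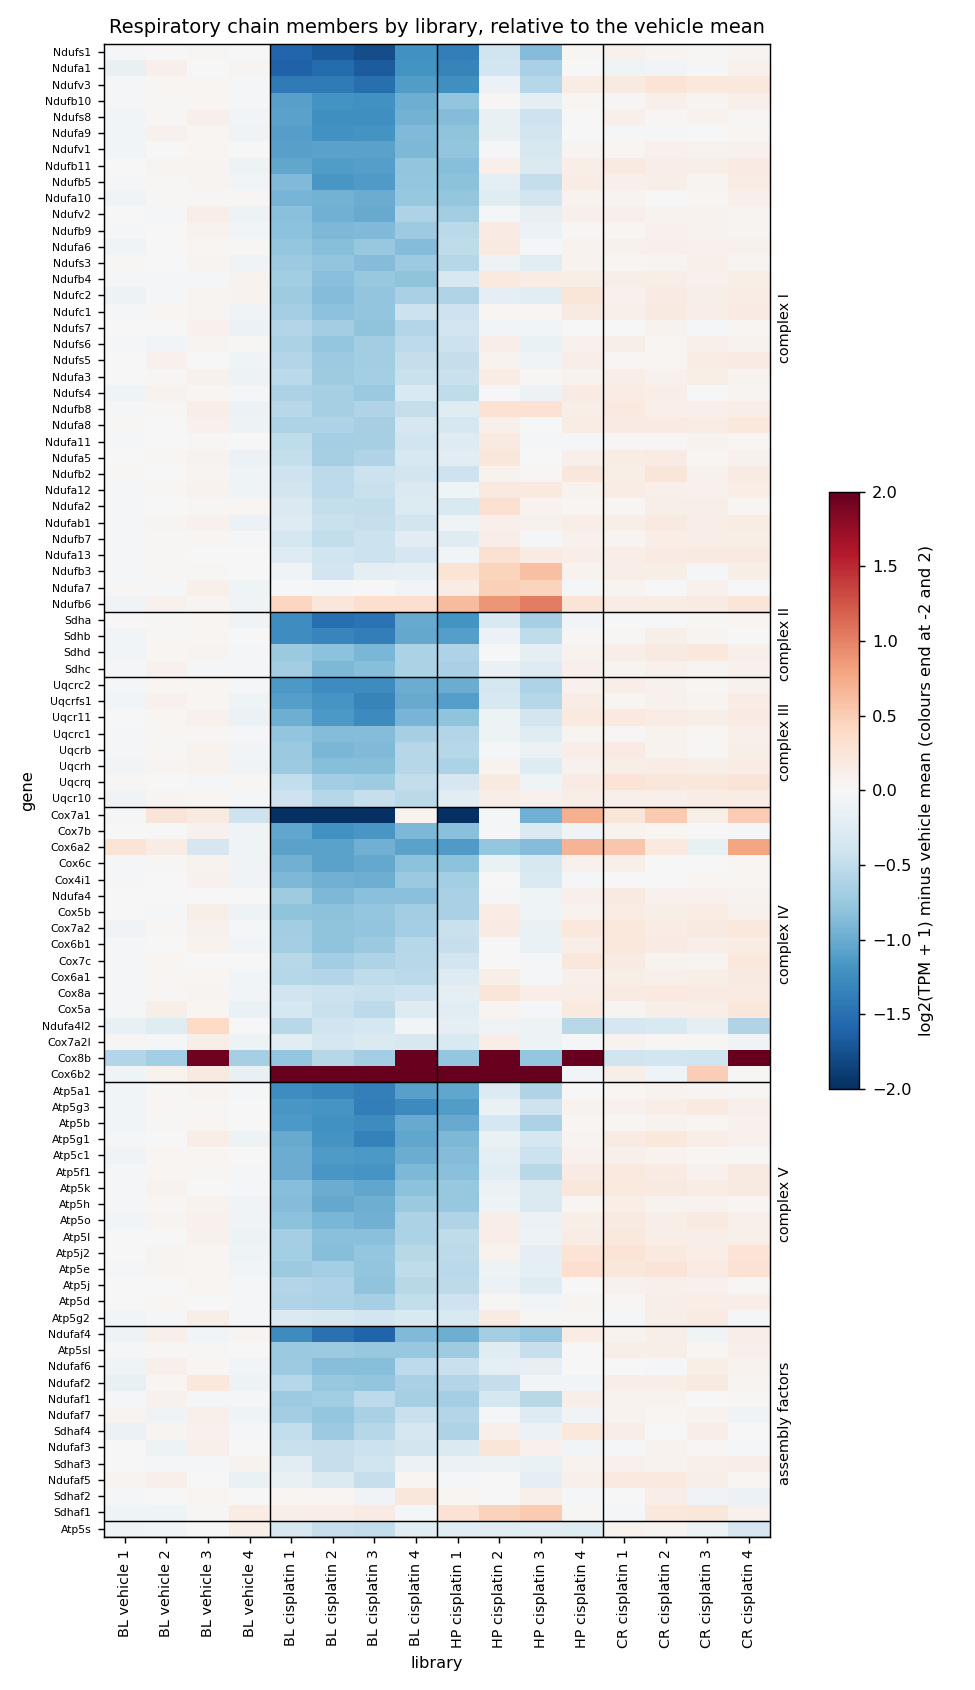
Each row is 1 member, grouped by complex, with 1 member left out of the plot, and each column 1 library; colour gives log2(TPM + 1) minus the mean of the 4 vehicle libraries. The 4 BL_cisplatin columns are blue in most members, HP_cisplatin 1 resembles them, and HP_cisplatin 4 and the CR_cisplatin columns are close to vehicle.

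Complex I, which oxidises NADH, had 33 of 36 members lower and 1 higher, with a median log2 fold change of -0.68. Its 7 catalytic core subunits all fell, with a median of -1.03, and the median of the 29 accessory subunits was -0.59; this difference was not tested. Ndufs1, the largest subunit and a carrier of iron-sulfur clusters, was at 33.8, 34.2, 34.8 and 34.7 TPM in the vehicle libraries and at 10.8, 10.1, 9.30 and 14.3 TPM in BL_cisplatin. The groups were well apart, and the log2 fold change was -1.56 ± 0.22 (SE; adjusted p = 6.19e-05 by limma). Ndufa1, an X-linked accessory subunit of the membrane arm, went from 134, 158, 148 and 153 TPM to 47.3, 50.5, 46.2 and 63.8 TPM, a log2 fold change of -1.50 ± 0.20. Ndufv3, an accessory subunit of the NADH dehydrogenase module, fell by 1.36 on the log2 scale. Ndufv1, a core subunit of the NADH module, fell by 1.03. Ndufa7 and Ndufb3, both accessory subunits, did not pass the test, with log2 fold changes of -0.02 and -0.21.

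Ndufb6, an accessory subunit of the membrane arm, was the only complex I member that rose. It was at 87.3, 97.4, 96.3 and 88.2 TPM in the vehicle libraries and at 124, 108, 116 and 117 TPM in BL_cisplatin, with no overlap. The log2 fold change was 0.33 ± 0.13 (adjusted p = 0.0307 by limma). The call was lost with median-ratio scaling, which gave 0.24, and when any of BL_cisplatin 1, 3 or 4 or BL_vehicle 1 or 4 was left out, with values of 0.30 to 0.33. With the title prefix as a term the value was 0.38 and did not pass (adjusted p = 0.263 by limma). Exons of Ndufb6 overlap Smim27 on the opposite strand in the annotation, and whether strand was used in counting is not given in the sources used here, so reads of the pair cannot be told apart.

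Complex II, succinate dehydrogenase, had the largest median fall of the complexes, -1.01, with 4 of 4 members lower; the difference between complexes was not tested. Sdha, the flavoprotein that oxidises succinate, was at 155, 156, 159 and 147 TPM in the vehicle libraries and at 64.6, 53.6, 54.7 and 76.2 TPM in BL_cisplatin. Its log2 fold change was -1.31 ± 0.19 (adjusted p = 6.57e-05 by limma), with no overlap. Sdhb, the iron-sulfur subunit, fell by 1.24, and the membrane anchors Sdhc and Sdhd fell by 0.77 and 0.78 on the log2 scale. In complex III, which passes electrons from ubiquinol to cytochrome c, 8 of 8 members were lower, with a median of -0.79. Uqcrc2, a core protein, went from 124, 130, 130 and 123 TPM to 56.7, 52.5, 52.6 and 63.5 TPM, a log2 fold change of -1.16 ± 0.16. Uqcrfs1, the Rieske iron-sulfur protein, also fell by 1.16, and Uqcrc1 fell by 0.80.

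In complex V 15 of 15 members were lower, with a median of -0.91. Atp5a1 and Atp5b form the catalytic hexamer. Atp5a1 went from 552, 587, 599 and 562 TPM in the vehicle libraries to 242, 232, 221 and 270 TPM in BL_cisplatin, a log2 fold change of -1.25 ± 0.16 (adjusted p = 4.97e-05 by limma). Atp5b went from 564, 593, 596 and 579 TPM to 262, 250, 244 and 288 TPM, a log2 fold change of -1.16 ± 0.16. Atp5g1, Atp5g2 and Atp5g3 encode the same mature c subunit of the rotor ring and differ in their import peptides. They fell unequally, by 1.14, 0.32 and 1.25 on the log2 scale. Of their summed TPM, Atp5g2 held 20.7 to 22.0% in the vehicle libraries and 32.7 to 35.1% in BL_cisplatin, while Atp5g3 went from 58.7 to 61.6% to 48.9 to 51.5%. Atp5g1 and Atp5g2 have 1 and 2 pseudogene copies at 95% identity or more over at least 100 bases, so the way shared reads were counted could move their levels.

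Complex IV, cytochrome c oxidase, had 14 of 17 members lower and 1 higher, with a median of -0.70 and values from -2.03 to 3.24. It holds several paralog pairs that are used in different tissues. Cox4i1, the ubiquitous form of subunit 4, was at 296, 305, 320 and 287 TPM in the vehicle libraries and at 161, 155, 153 and 180 TPM in BL_cisplatin, a log2 fold change of -0.89 ± 0.13. Cox5a, Cox6a1, Cox6b1, Cox7a2 and Cox8a fell by 0.39, 0.55, 0.70, 0.75 and 0.42, and Ndufa4 by 0.82. Cox7a2l, a paralog of Cox7a2 known for its part in supercomplexes of complexes III and IV, fell by only 0.30, and its share of the summed TPM of Cox7a1, Cox7a2 and Cox7a2l was 23.5 to 25.8% in the vehicle libraries and 28.4 to 33.2% in BL_cisplatin. Ndufa4l2, the paralog of Ndufa4 known to be induced in low oxygen, stayed at 1.17 to 3.35 TPM in all 16 libraries and passed no test.

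Cox6b2, known as the testis form of subunit 6b, moved against its complex. It was at 2.10, 2.44, 2.73 and 1.96 TPM in the vehicle libraries and at 34.8, 28.0, 31.6 and 27.0 TPM in BL_cisplatin, so that the groups were far apart. The log2 fold change was 3.24 ± 0.61 (adjusted p = 0.000373 by limma), and it was 3.36 without the 5 libraries that held Ucp1. In HP_cisplatin 1 to 4 it was at 32.8, 40.0, 47.1 and 2.16 TPM, and in CR_cisplatin 1 to 4 at 2.56, 2.11, 3.62 and 2.34 TPM. HP_cisplatin 1 to 3 lay among or above the BL_cisplatin libraries, and HP_cisplatin 4 lay at the vehicle level. Its share of the summed TPM of Cox6b1 and Cox6b2 was 0.443 to 0.564% in the vehicle libraries, 8.09 to 10.8% in BL_cisplatin, 8.02 to 10.1% in HP_cisplatin 1 to 3 and 0.428% in HP_cisplatin 4, so Cox6b1 stayed the main form throughout. With the title prefix as a term the value was 3.28 and did not pass the test (adjusted p = 0.0625). CR_cisplatin 1, which has the prefix of BL_cisplatin, was at 2.56 TPM.

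Cox7a1, Cox6a2 and Cox8b are the forms known from heart, skeletal muscle and brown fat. Cox7a1 was at 19.9, 24.5, 23.0 and 15.0 TPM in the vehicle libraries and at 2.98, 1.69, 2.08 and 21.4 TPM in BL_cisplatin. The outlying library, BL_cisplatin 4, was the one with the highest Ucp1. The log2 fold change was -2.03 ± 0.62 (adjusted p = 0.0102 by limma), -2.73 without BL_cisplatin 4 and -2.67 without all 5 libraries that held Ucp1. With the title prefix as a term it was -1.89 and did not pass (adjusted p = 0.252 by limma). Cox8b was at 39.0 TPM in BL_cisplatin 4, 18.0 in HP_cisplatin 2, 17.2 in HP_cisplatin 4, 16.3 in CR_cisplatin 4 and 5.56 in BL_vehicle 3, and at most 0.311 TPM in the other 11 libraries. These are the same 5 libraries that held Ucp1. Cox8b passed no test with all libraries. Without those 5 its log2 fold change passed in CR_cisplatin against BL_cisplatin, at 0.28 (adjusted p = 0.0218 by limma), and against HP_cisplatin, at 0.38 (adjusted p = 0.0112), with every remaining library at 0.311 TPM or less. Cox6a2 was at 0.729 to 1.64 TPM in the vehicle libraries and at 0.0374 to 0.119 TPM in BL_cisplatin, with the library that held most Ucp1 at the lowest level, 0.0374 TPM. Its log2 fold change was -1.04 ± 0.31 (adjusted p = 0.00926 by limma), and -1.31 with the title prefix as a term, which did not pass (adjusted p = 0.121). The striated muscle genes Acta1, Myh4, Ckm and Tnnt3 were at 0.142 TPM or less in every library. The part of brown fat RNA in the levels of Cox7a1 and Cox8b was not tested.

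**Figure D2:**
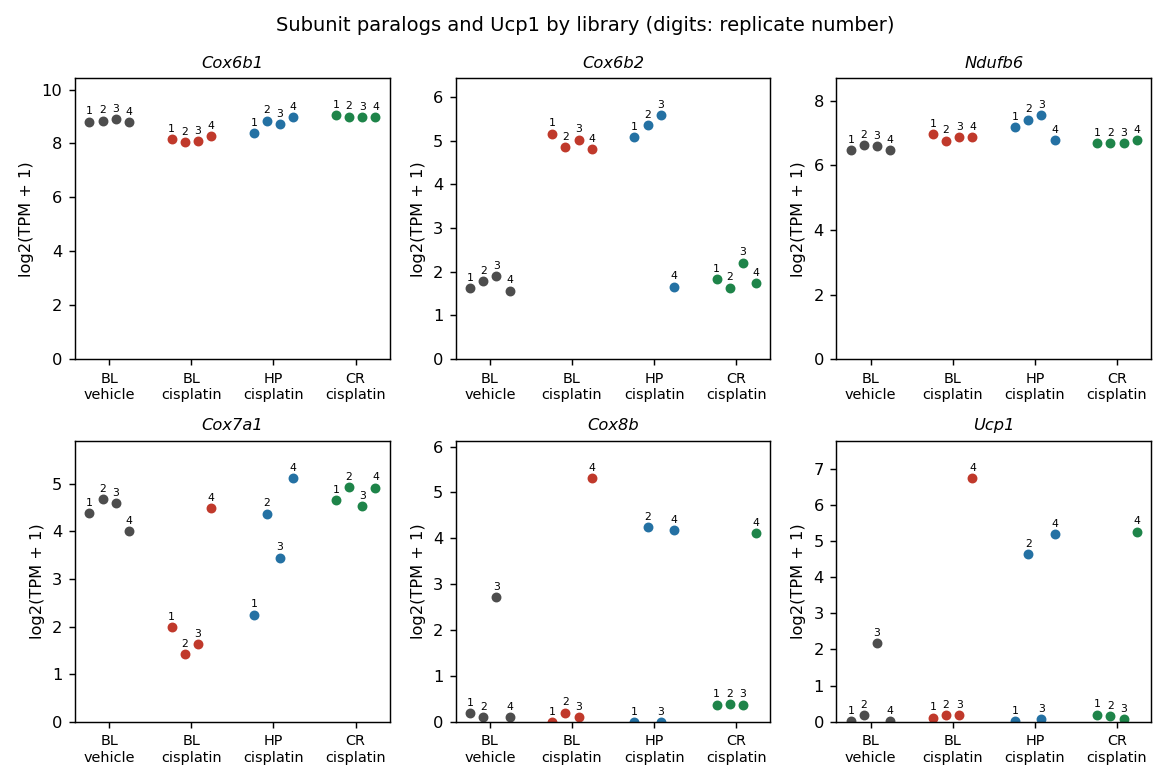
Each panel shows log2(TPM + 1) of 1 gene, each point 1 library with its replicate number and each colour 1 group. Cox6b2 is high in the BL_cisplatin libraries and in HP_cisplatin 1 to 3, and the libraries with high Cox8b are those with high Ucp1.

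Assembly factors build the complexes without being part of them. Among the 12 in the member list 9 were lower after cisplatin and none higher, with a median of -0.58. Ndufaf4, a complex I factor, went from 11.2, 13.1, 11.6 and 12.6 TPM to 4.46, 3.65, 3.32 and 6.10 TPM, a log2 fold change of -1.31 ± 0.20. Ndufaf5, Sdhaf1 and Sdhaf2 did not pass the test, with values of -0.21, 0.10 and 0.06. A wider list of 35 tested factors whose names fall outside the rule had 23 lower and 3 higher, with a median of -0.36. Ecsit and Acad9, which act together in complex I assembly, fell by 1.43 and 1.20. The factors that rose were Cox18 by 0.58, Uqcc2 by 0.47 and Ttc19 by 0.28.

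Other parts of the route moved the same way. Among 17 genes for electron carriers and ubiquinone synthesis 14 were lower and none higher, led by Adck3 and Coq9 of ubiquinone synthesis, which fell by 1.78 and 1.62. Cyc1, the cytochrome c1 of complex III whose symbol is outside the rule, fell by 0.75. Cycs, the somatic cytochrome c, had a log2 fold change of 0.24 and did not pass. All 12 tested protein-coding genes of the mitochondrial genome were lower, with a median of -0.89, and summed to 38948 to 40312 TPM in the vehicle libraries and 19332 to 23277 TPM in BL_cisplatin. Among 16 genes for other mitochondrial proteins, used as a measure of mitochondrial content, 11 were lower, led by the ADP/ATP carrier Slc25a5 at -1.23. Of 18 regulators of mitochondrial biogenesis 12 were lower and 4 higher. Ppargc1a, which encodes PGC-1alpha, went from 17.7, 16.7, 19.1 and 14.8 TPM to 6.49, 8.19, 6.00 and 9.15 TPM, a log2 fold change of -1.11 ± 0.18. Esrra, the estrogen-related receptor alpha, fell by 1.00, Tfam, the mitochondrial transcription factor, by 0.43 and Gabpa by 0.35, while Pprc1 and Gabpb1 rose by 1.12 and 0.74. Nrf1 itself was at 2.74 to 3.33 TPM in all 16 libraries, with a log2 fold change of 0.02.

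**Figure D3:**
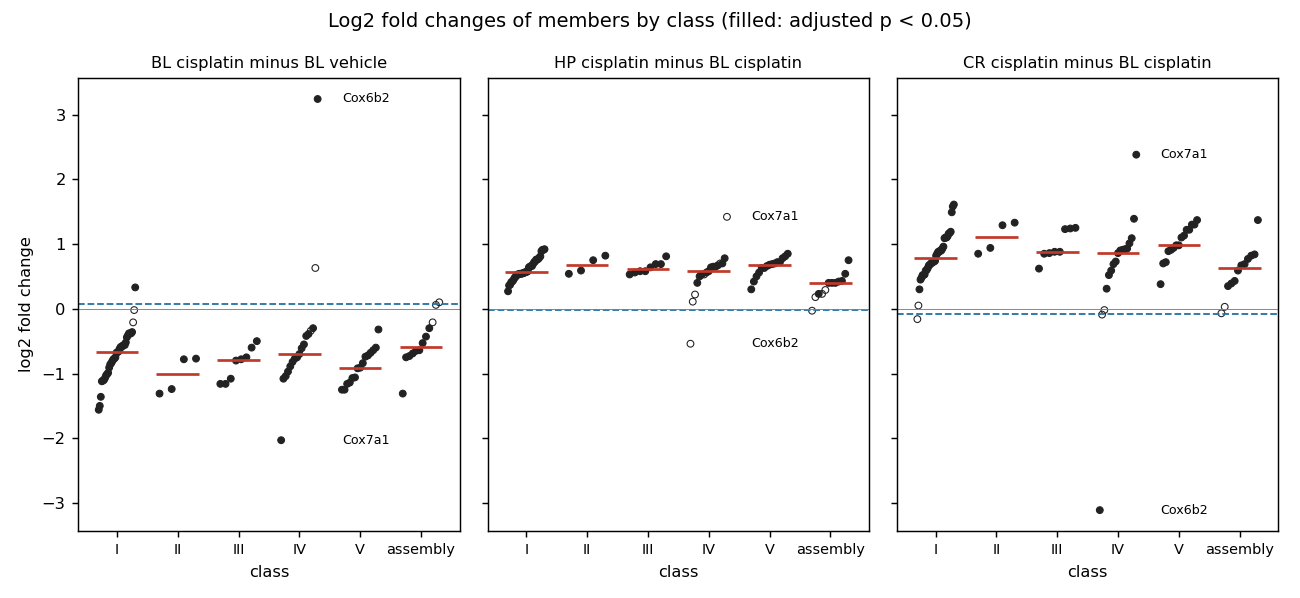
Log2 fold changes of the members of each class in 3 comparisons; each point is 1 gene, filled where the adjusted p is below 0.05, red lines are class medians and the dashed blue line is the median of all genes tested. Most members lie below the dashed line in the first panel and above it in the others, with Cox6b2 on the other side in all 3. For HP_cisplatin against BL_cisplatin it is at -0.54 and did not pass. Without HP_cisplatin 4 that value was 0.38.

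After calorie restriction the members were higher than with cisplatin alone and lay within or slightly above the vehicle range. Against BL_cisplatin, 86 of 93 members were higher and 1 lower in CR_cisplatin, where 29.8% of all genes were higher and 37.4% lower. The members' median log2 fold change was 0.86, against -0.08 over all genes. No overlap was seen for 84 members that were higher and 1 that was lower, against 27.5% and 37.3% of all genes. This comparison shares the BL_cisplatin libraries with the one against vehicle. Class medians were 0.78 in complex I, 1.11 in II, 0.88 in III, 0.86 in IV, 0.98 in V and 0.63 in the assembly factors. Ndufs1 was at 36.4, 35.6, 34.9 and 35.9 TPM in CR_cisplatin, above every BL_cisplatin library, a log2 fold change of 1.61 ± 0.22 (adjusted p = 6.27e-05 by limma). Sdha was at 154, 155, 157 and 158 TPM, a log2 fold change of 1.33 ± 0.19, and Atp5a1 at 591, 603, 595 and 584 TPM, a log2 fold change of 1.30 ± 0.16. Cox6b2 was the member that was lower, with a log2 fold change of -3.11 ± 0.61. Ppargc1a was higher by 1.23 ± 0.18.

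Within the first title prefix, the only library of this group, CR_cisplatin 1, held 87 of the 93 members above every BL_cisplatin library, and CR_cisplatin 2 to 4 held 87, 88 and 84. In CR_cisplatin 1 to 4, 56, 60, 57 and 58 members lay above all vehicle libraries and 36, 32, 34 and 32 within their range. These counts by library were not made over all genes, so they have no background to be set against. Against vehicle no member passed limma's test in CR_cisplatin. An unadjusted p below 0.05 was seen for 3 members and for 610 of all 15014 genes. In that fit, which held all 4 groups, 0.0133% of all genes were higher and 0.0400% lower. With only these 2 groups in the fit 1 member passed, with 0.533% of all genes called. There 39 members had an unadjusted p below 0.05, and the members' median was the same. The number of all genes below 0.05 was not counted there. The median log2 fold change of the members was 0.10, from -0.36 for Ndufa4l2 to 0.54 for Cox8b. Cox8b was at 16.3 TPM in CR_cisplatin 4, which held Ucp1, and at 0.294 to 0.311 TPM in the other CR_cisplatin libraries. Without overlap, 36 members lay above all vehicle libraries, against 6.43% of all genes. The 95% interval of the log2 difference was -0.41 to 0.52 for Ndufs1 and -0.38 to 0.41 for Sdha. A missed threshold does not show that the groups were alike.

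After hypoxia the members were also higher than in BL_cisplatin, but the 4 libraries differed widely. Of 93 members 82 were higher and none lower, where 16.4% of all genes were higher and 13.1% lower. The median was 0.58 against -0.02 over all genes. Without HP_cisplatin 4 the count was 79, the median 0.50 and the share of all genes called 19.2%. Where only the 2 groups compared entered the fit, and with the title prefix as a term, 0 of the 15014 genes passed. The members' median was then 0.58 and 0.60, with 79 and 59 members at an unadjusted p below 0.05. In the main fit 86 members and 6560 of all 15014 genes were below 0.05. The number of all genes was not counted in the other 2 fits. Without the 5 libraries that held Ucp1, which leaves HP_cisplatin 1 and 3, the count was 31 and the median 0.42, with 3.50% of all genes called. No overlap was seen for 52 members that were higher, against 6.41% of all genes. Class medians were 0.57 in complex I, 0.67 in II, 0.61 in III, 0.58 in IV, 0.68 in V and 0.40 in the assembly factors. All members of complexes I, II, III and V passed, as did 11 of 17 in complex IV and 8 of 12 assembly factors. Among them was Ndufb6, at 0.36 (adjusted p = 0.0443 by limma), which was also higher in BL_cisplatin than in vehicle. Without the libraries that held Ucp1, 20 of 36 members passed in complex I, 0 of 4 in II and 2 of 8 in III. The counts were then 5 of 17 in complex IV, 2 of 15 in V and 2 of 12 in the assembly factors. Without HP_cisplatin 4 the class medians were 0.52 in complex I, 0.55 in II, 0.50 in III, 0.49 in IV, 0.52 in V and 0.32 in the assembly factors, with 36, 4, 8, 11, 14 and 6 members called.

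Ndufs1 was at 12.5, 25.8, 18.4 and 35.4 TPM in HP_cisplatin 1 to 4, a log2 fold change of 0.91 ± 0.22 (adjusted p = 0.0108 by limma). The first library lay within the BL_cisplatin range and the fourth above the vehicle range. Sdha was at 66.5, 124, 97.1 and 148 TPM, a log2 fold change of 0.75 ± 0.19, and Atp5a1 at 279, 477, 380 and 574 TPM, a log2 fold change of 0.78 ± 0.16. Without HP_cisplatin 4 these 3 values were 0.68 (adjusted p = 0.0205 by limma), 0.58 (adjusted p = 0.0275) and 0.62 (adjusted p = 0.0117). Each gene kept the same order of libraries, lowest in HP_cisplatin 1 and highest in HP_cisplatin 4. HP_cisplatin 1 held 55 members above every BL_cisplatin library, and HP_cisplatin 2 to 4 held 88, 86 and 85. Like counts over all genes were not made. Cox7a1, at 3.76, 19.7, 9.90 and 33.9 TPM, did not pass the test (log2 fold change 1.42 ± 0.62, adjusted p = 0.0964 by limma). It passed without BL_cisplatin 4, at 2.12, and without HP_cisplatin 1, at 1.93. It did not pass without HP_cisplatin 4, at 0.97, or without the libraries that held Ucp1, at 1.17. With the title prefix as a term it did not pass either, at 1.28. HP_cisplatin 2 and 4, the highest here, were among the libraries that held Ucp1.

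**Figure D4:**
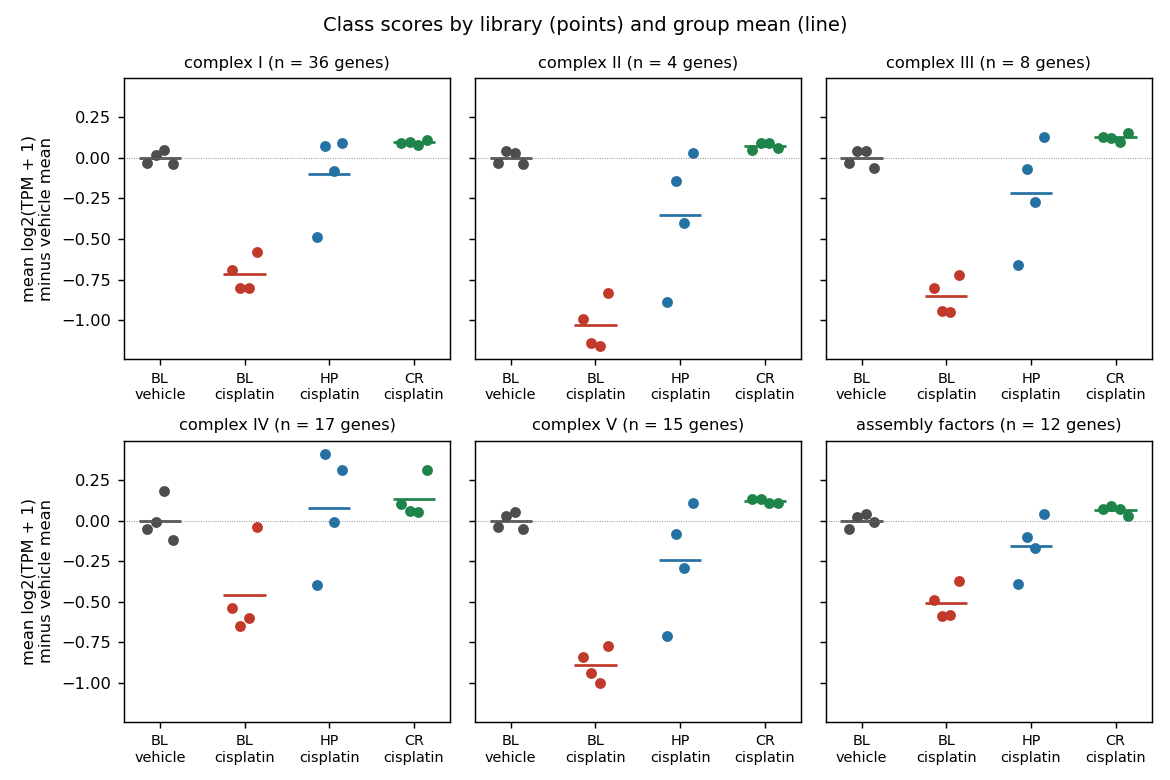
Mean log2(TPM + 1) of the members of each class minus the vehicle mean, with each point 1 library and each line a group mean. CR_cisplatin libraries lie together at or just above vehicle and HP_cisplatin libraries are spread widely, from -0.40 to 0.41 in complex IV. There the highest vehicle library is at 0.18, the highest CR_cisplatin library at 0.31, and BL_cisplatin 4 stands apart at -0.04. The score weighs genes of low and high level alike, Cox8b and Cox6b2 among them. Summed TPM of complex IV was 3646 in HP_cisplatin 2, the library at 0.41, against 3261 to 3523 in vehicle.

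The position of a library was set as 0 at the vehicle mean and 1 at the BL_cisplatin mean, and the median was taken over the 86 members called between these groups. HP_cisplatin 1 to 4 lay at 0.79, 0.04, 0.27 and -0.11, and CR_cisplatin libraries at -0.13 to -0.11. Over the 4322 genes lower after cisplatin, the same hypoxia libraries lay at 0.94, 0.23, 0.50 and 0.06, so the members' median was lower on this scale in each of the 4; this difference was not tested. Over 12 proximal tubule genes they lay at 0.87, 0.12, 0.41 and 0.03. The mitochondrial genome gave another picture. Its 12 protein-coding genes lay at 1.12, 0.75, 0.86 and -0.13, and summed to 19645, 26900, 23255 and 41711 TPM. In HP_cisplatin 2 the members' median was 0.04, but 36 members lay below every vehicle library, 22 within the vehicle range and 35 above it. This was not counted over all genes. Of the 12 mitochondrial genes 1 was higher in HP_cisplatin than in BL_cisplatin, with a median of 0.25. The difference between nuclear and mitochondrial genes was not tested.

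**Figure D5:**
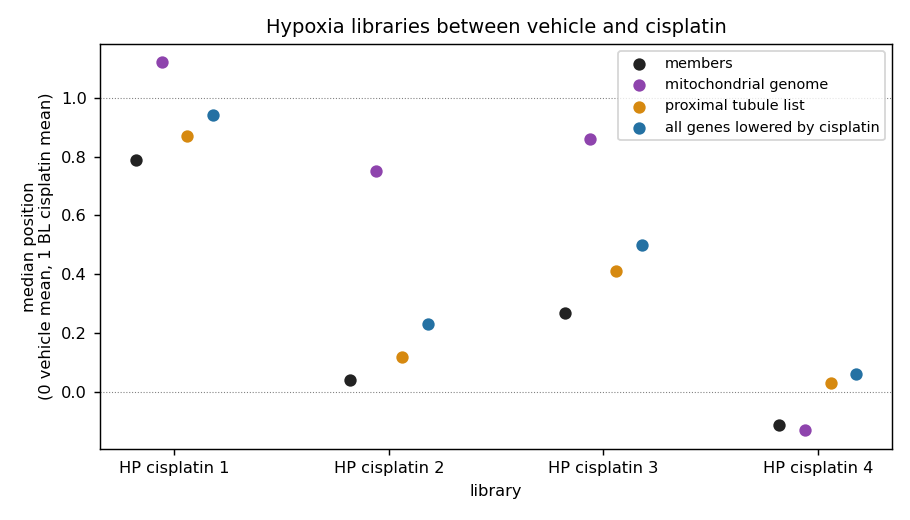
Median position of each HP_cisplatin library on a scale from 0, the mean of vehicle, to 1, the mean of BL_cisplatin, for the members, the mitochondrial genome, a proximal tubule list and all genes lowered by cisplatin. In HP_cisplatin 2 the members lie at 0.04 and the mitochondrial genome at 0.75.

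Against vehicle, 4 members were higher and 9 lower in HP_cisplatin, with 19.2% of all genes higher and 10.1% lower, and the members' median was -0.14. Of the 93 members, the share that was lower was thus near that of all genes, and the share that was higher was below it. Without HP_cisplatin 4 the counts were 5 and 38 and the median -0.22, but 51.3% of all genes were then called, so the members' share, 43 of 93, was below that of all genes. The 9 were Ndufs1, Ndufa1, Sdha, Uqcrc2, Atp5a1, Atp5b and the assembly factors Ndufaf1, Ndufaf4 and Atp5sl, with log2 fold changes of -0.65 for Ndufs1 to -0.35 for Atp5sl. Those higher were Cox6b2, at 2.70 ± 0.61 (adjusted p = 0.0129 by limma), Ndufb6, at 0.70 ± 0.13, Ndufb3, at 0.34 ± 0.10, and Sdhaf1, which helps insert the iron-sulfur clusters of complex II, at 0.32 ± 0.10. Ndufb6 was at 144, 170, 188 and 110 TPM in HP_cisplatin 1 to 4, above every vehicle library. Without HP_cisplatin 4 the log2 fold change was -0.88 for Ndufs1, 3.62 for Cox6b2, 0.84 for Ndufb6, 0.44 for Ndufb3 and 0.42 for Sdhaf1. Cox6a2 then passed as well, at -0.92 (adjusted p = 0.00160 by limma). No member passed where only these 2 groups, or only libraries of the second prefix, entered the fit, in which 11 and 43 of all genes did.

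The 2 preconditioned groups were compared directly. In CR_cisplatin 19 members were higher and 2 lower than in HP_cisplatin, with 9.24% of all genes higher and 15.0% lower, and the members' median was 0.26. The members that were higher included 6 of complex I, 6 of complex V and 4 assembly factors, led by Ndufs1 at 0.71 and Ndufv3 at 0.66. Those lower were Cox6b2 at -2.57 and Ndufb6 at -0.52. Without HP_cisplatin 4 the counts were 56 and 5, with a median of 0.33, and the share of all genes called went from 24.3% to 51.0%. Ndufs1 was then at 0.94, Cox6b2 at -3.49 and Ndufb6 at -0.67. When any single library of CR_cisplatin, or HP_cisplatin 1 or 3, was left out, 0 of the 15014 genes passed, members included. Except without HP_cisplatin 1, the members' median was then 0.25 to 0.27, with 37 to 41 members at an unadjusted p below 0.05. Without that library the median was 0.14, with 31 members. In the main fit 48 members and 6533 of all 15014 genes were below 0.05. The number of all genes was not counted in the other fits.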

How the data were processed

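The authors deposited 1 table of TPM values for 46078 genes in 16 libraries. Per the submitters' processing notes, STAR 2.5, featureCounts and Subread 1.5 were used with the mm10 (GRCm38) genome; settings, annotation and use of strand are not given in the sources used here. GENCODE M21 held 45143 of the gene identifiers. The deposited TPM values were recovered as whole reads for the depth and for 1 alternative, within 0.0001 reads: 24571 of 32198 genes with reads (76.3%) by annotated exon length and 7626 by a searched length. Genes at 1 TPM or more in at least 4 libraries (15014) were tested on log2(TPM + 1) with limma 3.58.1 in R 4.3.3, with group as the only term, all 16 libraries, trended and robust variances and Benjamini-Hochberg adjustment over all genes. A log2 fold change on this scale understates changes of low genes. The procedure was tested on simulated data. Values of 1 complex I member are not reported here; it stays in the counts and medians. Pseudogene copies were counted with blastn 2.17.0. The members and gene lists were chosen with earlier results of these data known, and 2 lists (adipose and striated muscle) and the settings that leave out several libraries together were chosen after values were seen. Named genes were, in the 3 comparisons with BL_cisplatin, the 2 largest called rises and falls of each class, called members against their class, a fixed set of core subunits and paralogs, and up to 6 called members in each other comparison; others named in the text were chosen after their values were seen. Alternatives were another pseudocount (0.1), no filter, other scalings, other sets of libraries, a term for the title prefix, another variance prior, voom on recovered reads and leaving out each library.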

Additional observations from a re-analysis of the deposited data

Results flagged for a closer look

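In 12 of 180 sets of 4 values (a member or class score in 1 group), 1 library lay far from the other 3 by Dixon's criterion, which chance gives in about 5% of sets. Of these, 4 were in libraries that held brown fat transcripts and in genes known from that tissue: Cox7a1 at 21.4 TPM in BL_cisplatin 4, and Cox8b at 39.0 TPM in BL_cisplatin 4, 16.3 TPM in CR_cisplatin 4 and 5.56 TPM in BL_vehicle 3. The complex IV score of BL_cisplatin 4 was -0.04, against -0.65 to -0.54 in the other BL_cisplatin libraries. This score includes Cox7a1 and Cox8b and weighs all genes alike. Summed TPM of complex IV was 2326 in BL_cisplatin 4, against 2095 to 2228 in the others. Ndufv1 was at 63.4 TPM in BL_cisplatin 4, against 55.7 to 56.1 TPM. Cox6a2 was at 2.51 TPM in HP_cisplatin 4, against 0 to 0.278 TPM in the other hypoxia libraries, and at 0.119 TPM in BL_cisplatin 3, against 0.0374 to 0.0413 TPM. The rest were small shifts: Atp5g2 at 47.4 TPM in BL_vehicle 3 (others 42.1 to 42.8 TPM), Ndufa4 at 558 TPM in CR_cisplatin 1 (others 516 to 521 TPM), Ndufb3 at 63.2 TPM in CR_cisplatin 3 (others 69.3 to 69.6 TPM) and Atp5sl at 17.8 TPM in CR_cisplatin 3 (others 18.7 to 18.9 TPM). The direct comparison of the preconditioned groups found 21 of the 93 members that differed, 19 higher and 2 lower in CR_cisplatin. Of all genes 24.3% differed, 9.24% higher and 15.0% lower, so the members' total was near that share. How the members' count moves with single libraries is given with the other settings.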

How the results depend on the processing

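No paired analysis was possible because the labels give no replicate numbers. The number of members called stayed within 1.5 times the main count for BL_cisplatin against BL_vehicle (59 to 88 over 10 settings, 85 to 87 leaving out each library in turn) and CR_cisplatin against BL_cisplatin (81 to 88 and 86 to 87). The lowest counts, 59 and 81, came with the title prefix as a term, where 22.7% and 42.1% of all genes were called. In the main fits these shares were 66.8% and 67.3%. The counts of the hypoxia comparisons moved by more than 1.5 times. HP_cisplatin against BL_cisplatin (82) gave 0 with only the 2 groups in the fit, 0 with the title prefix as a term, 31 without the libraries that held Ucp1, and 74 to 85 leaving out each library in turn; of all genes 0, 0 and 3.50% were called in the first 3. HP_cisplatin against BL_vehicle (13) gave 3 with no filter, 25 with median-ratio scaling, 0 with only the 2 groups, 5 with the prefix term, 0 with only the second prefix, 57 without the libraries that held Ucp1, 43 without both HP_cisplatin 4 and CR_cisplatin 4, and 1 to 43 leaving out each library. Of all genes, 9.18% were called with no filter, 32.3% with median-ratio scaling and 0.0733% with only the 2 groups. The prefix term gave 24.3% and the second prefix alone 0.286%. The share was 56.5% without the libraries that held Ucp1 and 50.1% without both others, against 29.3% in the main fit. CR_cisplatin against HP_cisplatin (21) gave 0, 43, 0, 0, 0, 74 and 50 under the same settings in that order, and 0 to 61 leaving out each library. Every setting that gave 0 here called 0 of all genes. The settings that gave 43, 74 and 50 called 30.0%, 55.9% and 46.4%, against 24.3% in the main fit. CR_cisplatin against BL_vehicle (0) gave 1 with only the 2 groups and 0 otherwise. The cause of these shifts was not tested. Some of those fits held fewer libraries, while no filter, median-ratio scaling and the prefix term used all 16. The prefix term itself rests on CR_cisplatin 1 against CR_cisplatin 2 to 4. With it, every comparison with BL_cisplatin depends on CR_cisplatin 1. Without the libraries that held Ucp1, Cox8b changed sign and passed, at 0.28 in CR_cisplatin against BL_cisplatin and 0.38 against HP_cisplatin. Of the 38 named members, BL_cisplatin against BL_vehicle stayed on the same side of the threshold in 659 of 684 values. HP_cisplatin against BL_cisplatin did so in 575 of 684. These counts include changes of sign where neither value passed. An example is Cox8b in BL_cisplatin against BL_vehicle, at 0.63 in the main fit and -0.67 without BL_cisplatin 4. Depth limits Cox6a2, Ndufa4l2 and Cox8b most, with means of 24.9, 69.1 and 88.2 recovered reads per library; the next lowest member, Atp5s, had 247.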

Other observations

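In the vehicle libraries the most abundant members by TPM were Cox8a, at 644 to 690 TPM, Atp5b, at 564 to 596 TPM, and Atp5a1, at 552 to 599 TPM, while the assembly factors lay far lower, from 1.44 to 1.61 TPM for Sdhaf3 to 16.8 to 17.7 TPM for Atp5sl. Across the 93 members, annotated exon length and the log2 fold change after cisplatin had a Spearman's rho of -0.17. For the vehicle level, as log2(TPM + 1), and the same fold change the rho was -0.39. Both are descriptions across genes, which share libraries and are not independent. The 70 members without a pseudogene copy had a median log2 fold change after cisplatin of -0.71 and the 23 with 1 or more had -0.78. Exons of 32 members overlap a gene on the opposite strand and those of 5 a gene on the same strand, among them Atp5j, which overlaps Gabpa; without a stated use of strand, reads of such pairs cannot be told apart.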
